A study of Homo sapiens with 19 samples.

Results

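Superenhancers that MDA-MB-436 breast cancer cells had at places where MDA-MB-231 cells had none were described by list, width, position and OCT-2 peaks. They were chosen from the deposited region lists: a region of any of the 3 MDA-MB-436 lists was a member when it shared no base with any region of the 3 lists made from 231Pa and 231-D. Of 537 MDA-MB-436 superenhancers, 313 met this rule and are called restricted below, and the other 224 overlapped a MDA-MB-231 superenhancer. The 6 lists hold 1103 regions in all, and 350 of the 566 MDA-MB-231 regions were restricted to that line by the same rule turned round.

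A superenhancer is a stretch of clustered enhancers that carries dense H3K27 acetylation, a mark of active enhancers and promoters. Such regions often lie near genes that set the identity of a cell, and tumour cells can gain them near oncogenes. MDA-MB-436 and MDA-MB-231 are both triple-negative breast cancer lines of mesenchymal appearance, from different patients. OCT-2, the product of POU2F2, is an octamer-binding POU factor known above all from B lymphocytes.

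H3K27ac was precipitated in MDA-MB-436_Luc2_No3a, a polyclonal ex vivo culture of a xenograft, and in MDA-MB-436_Luc2, the parental line from which it came, with 2 replicates each. Both carry luciferase and were grown in RPMI medium with serum, and the analysed samples hold an input of MDA-MB-436_Luc2 alone. The other line was represented by 231-D, a highly metastatic MDA-MB-231 clone that carries luciferase, and by 231Pa, its parent without a transgene, also with 2 H3K27ac replicates each; OCT-2 was precipitated in 231-D in 2 replicates. The host of the xenograft, and whether any of its cells persisted in the culture, are not stated in the labels. The lists give positions and no read counts, so depth is unknown, the unit of every share and test is a region and not a library, and a region missing from a list is not shown to lack acetylation. The lists of the 2 lines carry different dates in their names, so line and round of processing cannot be told apart. Genes could not be assigned, because the gene table used here is of GRCh38 and the regions are in hg19; regions are therefore named by position, and the labelled cell type was not checked against marker genes.

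At the edge of the rule, the restricted region nearest to a MDA-MB-231 superenhancer, on chromosome 2 (109852356 to 109902288, No3a-specific), lay 18.98 kb away from it. The next 4 were 27.1 kb away on chromosome 6 (26155147 to 26475785), 28.4 kb on chromosome 11 (67006413 to 67086122), 29.7 kb on chromosome 3 (98602567 to 98643660) and 30.1 kb on chromosome 8 (128745614 to 128775971). Among regions outside the rule, the smallest overlaps in kb were 7.56 kb on chromosome 5 (148288374 to 148295937), 9.82 kb and 13.4 kb on chromosome 14 (105484332 to 105494153 and 61643184 to 61656575), 11.7 kb on chromosome 19 (41724297 to 41735985) and 14.2 kb on chromosome 4 (56037777 to 56052007). In each of these 5 the overlap took in the whole region, since they were narrow, so they are not borderline cases. Over all 224 overlapping regions, a median of 99.8% of the region was covered by MDA-MB-231 superenhancers. The least was 20.03%, 14 were covered by less than 50%, and 100 were covered completely. Most restricted regions lay far from the other line's superenhancers, at a median of 1230 kb (quartiles 441 and 3329 kb). Within 100 kb of one lay 29 of the 313, within 1 Mb 134, and over 5 Mb away 41, up to 18235 kb for a No3a-specific region on Xq (130879950 to 130965711).

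Superenhancers listed for a single culture and superenhancers common to both made up nearly equal parts of the restricted set. The members held 91 regions listed for the xenograft culture alone (No3a-specific, 29.1%), 68 listed for the parental culture alone (Luc2-specific, 21.7%) and 154 common to both (common, 49.2%). Among all 537 regions the same lists made up 21.6%, 18.1% and 60.3%. Read the other way, 78.4% of No3a-specific regions were restricted (91 of 116, exact 95% interval 69.8 to 85.5%) and 70.1% of Luc2-specific ones (68 of 97, 59.96 to 78.98%), while 47.5% of the common regions were (154 of 324, 42.0 to 53.1%). The overall share was 58.3% (interval 54.0 to 62.5%).

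The 2 cultures were not shown to differ in this share. The odds ratio of No3a-specific to Luc2-specific regions was 1.55 by a Fisher exact test (two-sided p = 0.206, Benjamini-Hochberg adjusted p = 0.206 over 3 tests), with a 95% interval of 0.83 to 2.89 that takes in both no difference and a large one. Regions of the common list are unions of calls of both cultures and are wider than No3a-specific ones; of the 154 restricted ones, 153 merged 2 calls and 1 merged 3. On the MDA-MB-231 side, 86.7% of 231Pa-specific regions (137 of 158), 59.6% of 231-D-specific regions (134 of 225) and 43.2% of the common ones (79 of 183) met no MDA-MB-436 region.

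**Figure D1:**
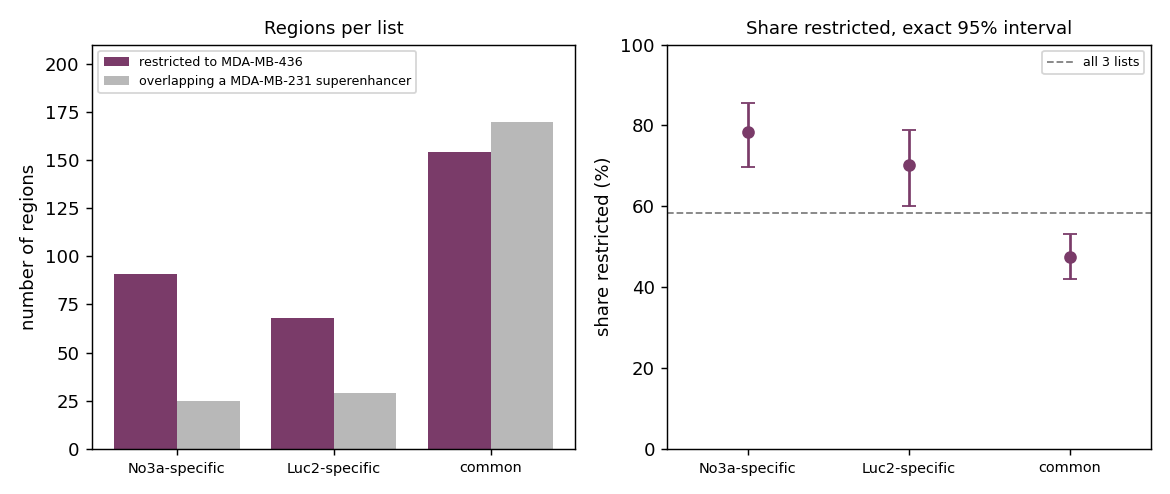
Left, the number of regions (y axis) of each MDA-MB-436 list that were restricted to MDA-MB-436 or overlapped a MDA-MB-231 superenhancer. Right, the restricted share in percent with its exact 95% interval (counting error only); the dashed line is the 58.3% of all 3 lists, with both culture-specific lists above it and the common list below.

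Widths are given as a description, because a narrow region has less chance to overlap anything and the rule therefore favours narrow ones. Restricted superenhancers had a median width of 75.7 kb (quartiles 46.3 and 113 kb, from 5.12 to 321 kb) and covered 26.5 Mb; the overlapping ones had a median of 90.5 kb (quartiles 61.4 and 138 kb, from 7.56 to 565 kb) and covered 24.4 Mb. In the common list the medians were 84.2 kb when restricted and 99.8 kb when overlapping. In the No3a-specific list they were 47.9 and 49.0 kb, and in the Luc2-specific list 91.8 and 83.3 kb for restricted and overlapping regions, so the order turned round in the second of these lists. From the narrowest to the widest quartile of all MDA-MB-436 regions, the restricted share was 68.7%, 60.4%, 58.2% and 45.9%. Within the common list the same quartiles gave 57.4%, 54.2%, 47.1% and 37.0%, while the No3a-specific list gave 79.4%, 73.1%, 88.2% and 70% and the Luc2-specific list 64.7%, 68%, 73.3% and 72%. A fall from each quartile to the next was thus seen in the common list and not in the other lists.

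Narrow members came from the xenograft culture and from the common list. Of the 23 restricted regions under 20 kb, 16 were No3a-specific, 7 were common and 0 were Luc2-specific. This follows the lists and is not particular to the members. Overlapping regions reached down to 9.82 kb in the No3a-specific, 7.56 kb in the common and 17.4 kb in the Luc2-specific list. In the narrowest quartile of width, 50 of 63 No3a-specific regions were restricted (79.4%), close to the 78.45% of that whole list. The narrowest was a No3a-specific region of 5.12 kb on 1q (150335145 to 150340268), followed by No3a-specific regions of 5.59 kb on 22q (29661717 to 29667308) and 6.72 kb on 6p (32934904 to 32941621). Of the 11 members of at least 200 kb, 8 were common, 3 were Luc2-specific and 0 were No3a-specific.

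**Figure D2:**
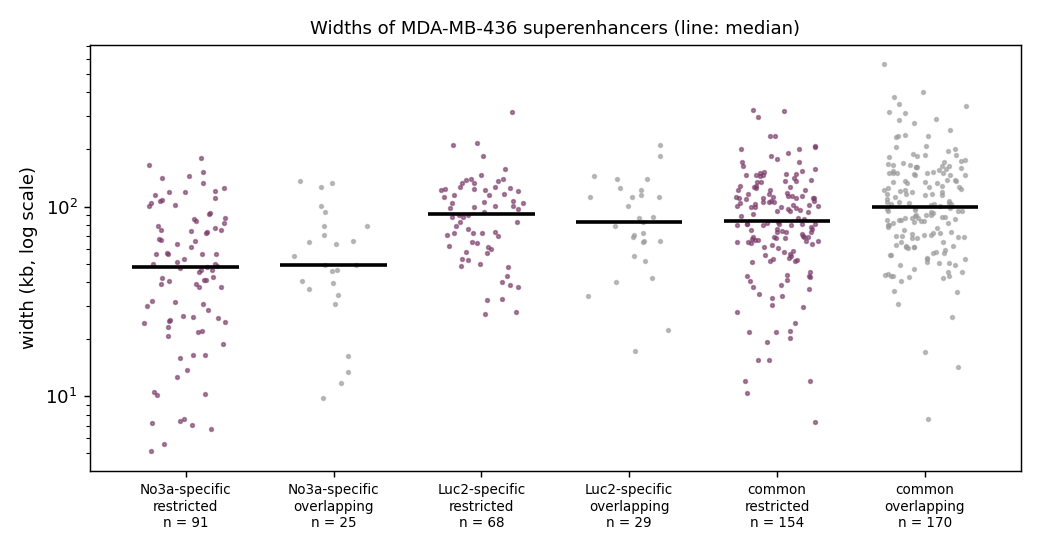
Width of each MDA-MB-436 superenhancer in kb on a log scale, by list and by status; points are single regions and black lines are medians. The restricted No3a-specific group reaches lowest, with a median of 47.9 kb, and the widest restricted regions, up to 321 kb, belong to the common and Luc2-specific lists.

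The 10 widest restricted superenhancers lay on 7 chromosome arms, and 8 of them had another member within 1 Mb. The widest was a common region of 321 kb on 7p (5434767 to 5756085), the merge of 3 calls, 2518 kb from the nearest MDA-MB-231 superenhancer and without an OCT-2 peak. On 6p, a common region of 321 kb (26155147 to 26475785) and one of 234 kb (27637145 to 27871602) had a No3a-specific member between them (27094384 to 27219516, 125 kb). The parental culture alone had 2 wide neighbours on 19p, of 317 kb (18384571 to 18701384) and 212 kb (17319915 to 17531869), and a region of 217 kb on 2q (151322784 to 151539899); each of these 3 held 1 OCT-2 peak of 231-D. On 8q lay common regions of 298 kb (126272427 to 126570733) and 205 kb (141467056 to 141672214). The remaining 2 were common regions of 236 kb on 11q (63931571 to 64167970) and 208 kb on 5q (176776926 to 176985069). The widest No3a-specific member, 180 kb on 7q (140217796 to 140398183), ranked below all of these.

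Restricted superenhancers were spread over 39 of the 41 chromosome arms that held any MDA-MB-436 superenhancer, with uneven shares. The arms with most members were 1p and 1q with 19 each, 2p and 9q with 18 each and 10q with 17. Among the 27 arms with at least 8 MDA-MB-436 regions, 18 had more restricted than overlapping ones. The highest shares were those of 17p (12 of 13, 92.3%, exact 95% interval 64.0 to 99.8%), 19p (9 of 11, 81.8%), 4p (7 of 9, 77.8%), 2p and 9q (18 of 25 each, 72%). The lowest were those of 20q (3 of 14, 21.4%, interval 4.66 to 50.8%), 17q (7 of 19, 36.8%), 11q (8 of 19, 42.1%), 14q (4 of 9, 44.4%) and 5q (9 of 20, 45%). Of the 27 intervals, that of 17p alone lay above the overall share of 58.3% and that of 20q alone below it. The intervals were not adjusted for their number, and among so many a few can miss the overall share by chance. They also count neighbouring regions as independent, although 7 of the 12 members on 17p stood within 1.24 Mb. Neither arm was tested. Taken per length, 17p held 5.39 members per 10 Mb and 19p 3.65, against 1.56 on 1p and 0.453 on 14q.

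Chromosomes 13 and X, picked out after their values were seen, had superenhancers in both lines but none at a shared place. On the X chromosome all 8 MDA-MB-436 regions and all 10 MDA-MB-231 regions were restricted to their line, and the closest approach between the lines was 1434 kb. On 13q all 7 MDA-MB-436 and all 3 MDA-MB-231 regions were restricted, at 3133 kb or more from each other. With 7 regions the exact interval of the restricted share on 13q reached down to 59.04%, next to the overall share of 58.3%. The trait was not particular to these chromosomes. On 20p all 3 MDA-MB-436 and all 5 MDA-MB-231 regions were restricted, and on 16p all 5 and the only 1. Arms 16q and 21q had no restricted region, with 4 and 3 MDA-MB-436 regions.

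The number of superenhancers restricted to each line differed on many arms, without a test. Members outnumbered the superenhancers restricted to MDA-MB-231 on 20 arms, were fewer on 19 and as many on 2. On 17p 12 of 13 MDA-MB-436 and 1 of 2 MDA-MB-231 regions were restricted, on 9q 18 of 25 and 8 of 14, and on 2p 18 of 25 and 10 of 17. In the opposite direction, 10p had 1 of 5 and 15 of 19, 14q 4 of 9 and 19 of 24, 5q 9 of 20 and 27 of 37, and 6p 8 of 14 and 23 of 29. On each of these arms the line with more restricted regions also had more superenhancers in all. The counts are thus not particular to the restricted sets.

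**Figure D3:**
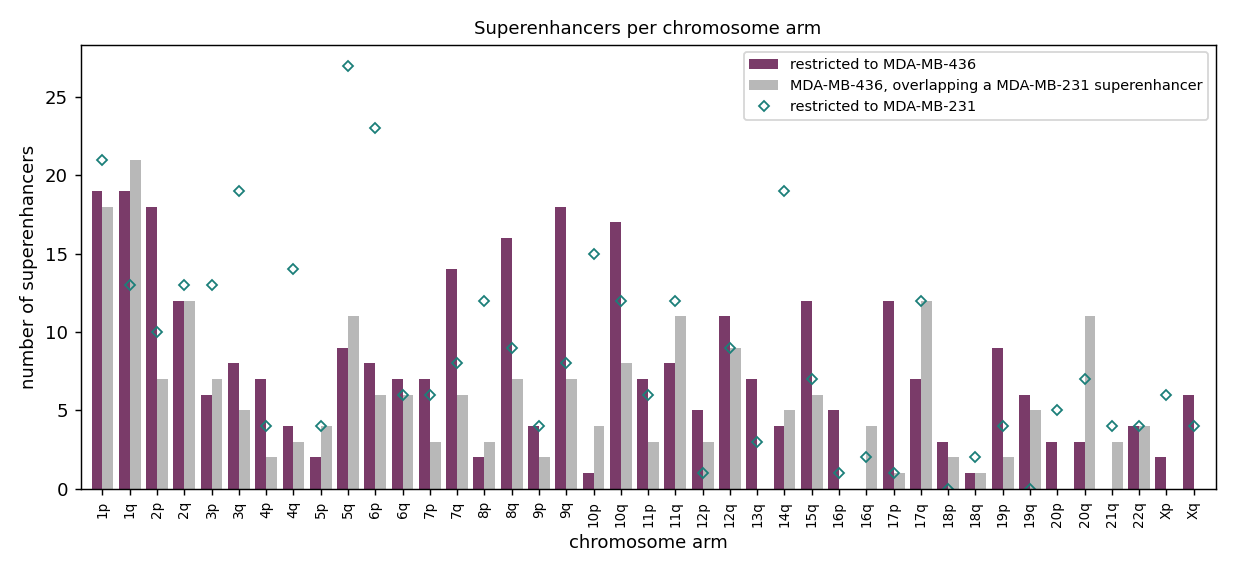
Number of superenhancers per chromosome arm (x axis): bars for MDA-MB-436 regions that were restricted and that overlapped a MDA-MB-231 superenhancer, and open diamonds for regions restricted to MDA-MB-231. Arm 17p has 12 restricted regions beside 1 overlapping region and 1 diamond, while 10p, 14q, 5q and 6p have the diamond far above the bars.

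Lists differed between arms as well. Of the 12 members on 17p, 10 were common to both MDA-MB-436 cultures, and on 17q 6 of 7 were No3a-specific. On 19p 5 of 9 members were Luc2-specific, and on 7q 7 of 14 were No3a-specific. Chromosome 11 had 15 members and chromosome 20 had 6, of which 0 were Luc2-specific. Overlapping regions of chromosome 20 held no Luc2-specific one either, and the only overlapping region on 17p was common too. Those traits are thus not particular to the members. On chromosome 11 some overlapping regions were Luc2-specific. With so few regions per arm these counts are a description.

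Chromosome ends held a larger share of the members than of the other sets. Within 10 Mb of an end of the chromosome were 92 of 313 restricted regions (29.4%, exact 95% interval 24.4 to 34.8%), against 38 of 224 overlapping ones (16.96%, interval 12.3 to 22.5%) and 48 of 350 restricted to MDA-MB-231 (13.7%, interval 10.3 to 17.8%). The common members had the highest share (53 of 154, 34.4%), then the No3a-specific (27 of 91, 29.7%) and the Luc2-specific ones (12 of 68, 17.6%). These shares were looked at after the positions were known and were not tested.

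Restricted superenhancers often stood in groups. With neighbours joined across gaps of 1 Mb or less, 165 of 313 members (52.7%, exact 95% interval 47.0 to 58.4%) belonged to 57 clusters, and 148 stood alone. By the same joining, 96 of 224 overlapping regions (42.9%, interval 36.3 to 49.6%) and 152 of 350 regions restricted to MDA-MB-231 (43.4%, interval 38.2 to 48.8%) were in clusters. The differences between these shares were not tested. The largest clusters held 7 members, against 4 among overlapping regions and 6 among those restricted to MDA-MB-231. Of the 57 clusters, 31 held 2 members, 13 held 3, 8 held 4, 1 held 5, 1 held 6 and 3 held 7. The median gap from a member to the next was 0.916 Mb, against 1.501 Mb between overlapping regions and 1.489 Mb between regions restricted to MDA-MB-231. At close range the order was another: the next region of the same set lay within 100 kb for 36 of 313 members, 31 of 224 overlapping regions and 61 of 350 regions restricted to MDA-MB-231, and the lower quartile of the gap was 0.227, 0.344 and 0.217 Mb in the same sets. Gaps and clusters were counted within each set, and the overlapping set has fewer regions than the members, which by itself spaces them wider. To the next MDA-MB-436 region of either kind, the median gap was 0.5118 Mb for members and 0.5605 Mb for overlapping regions. By that measure 59 of 313 and 52 of 224 lay within 100 kb.

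Clusters mixed the lists in most cases. Of the 57, 19 held regions of 1 list alone: 12 of the common list, 4 of the No3a-specific and 3 of the Luc2-specific list. No3a-specific and Luc2-specific members met in 5 clusters. In 8 clusters an overlapping MDA-MB-436 region, and in 8 a MDA-MB-231 region, lay within the span. Of the No3a-specific members, 48 of 91 (52.7%) lay within 1 Mb of a superenhancer of the common list, as did 33 of 68 Luc2-specific members (48.5%). These are near the shares of all members (167 of 313, 53.35%) and of overlapping MDA-MB-436 regions (103 of 224, 45.98%).

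Among the 3 clusters of 7 members, the one on 9q covered most sequence, 629 kb within 1.81 Mb (130597922 to 132405228). It interspersed 3 common regions of 200, 94.5 and 51.1 kb with 4 No3a-specific ones of 102, 50.9, 37.7 and 92.7 kb, so the parental culture had 3 of the 7 and the xenograft culture all of them. No other superenhancer of either line lay in this span, and of 2 OCT-2 peaks of 231-D there, 1 was inside a member.

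On 17p, 7 common regions of 7.28 to 149 kb covered 611 kb within 1.24 Mb (6911841 to 8155029). Each was listed for both cultures, with gaps of 27.9 to 227 kb between them and no MDA-MB-231 region in the span. Nearer to the end of the same arm stood 4 further members from 1269806 to 2953017, of 69.8 to 152 kb, and 1 alone (4802863 to 4903919). These 12 were the longest run of restricted regions with no overlapping MDA-MB-436 region between them, over 6.88 Mb with 1 MDA-MB-231 region in it. The longest run of overlapping regions had 8, on 17q. Since 58.3% of the regions were restricted, longer restricted runs can come from that share alone. Runs numbered 122 for restricted and 117 for overlapping regions.

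The third cluster of 7 lay on 1q (149853851 to 152023297, 2.17 Mb) and joined 4 common, 2 Luc2-specific and 1 No3a-specific regions of 5.12 to 138 kb, with 2 OCT-2 peaks. A MDA-MB-231 superenhancer and an overlapping MDA-MB-436 region interrupted it. Near the end of 8q, 5 common regions and 1 Luc2-specific one covered 585 kb within 2.33 Mb (143750019 to 146079577), with 0 OCT-2 peaks and with 1 MDA-MB-231 superenhancer in the span. On 6p, 4 No3a-specific regions and 1 Luc2-specific region of 6.72 to 122 kb stood within 2.46 Mb (31759720 to 34217523), the only one of these 5 clusters without a common region, also with 1 MDA-MB-231 superenhancer between its members. By sequence covered, the cluster of 3 on 6p that holds 2 of the widest members (26155147 to 27871602) came first with 680 kb. The 26 clusters of 3 or more lay on 19 arms of 15 chromosomes, spanned a median of 1.35 Mb and took in 103 members.

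**Figure D4:**
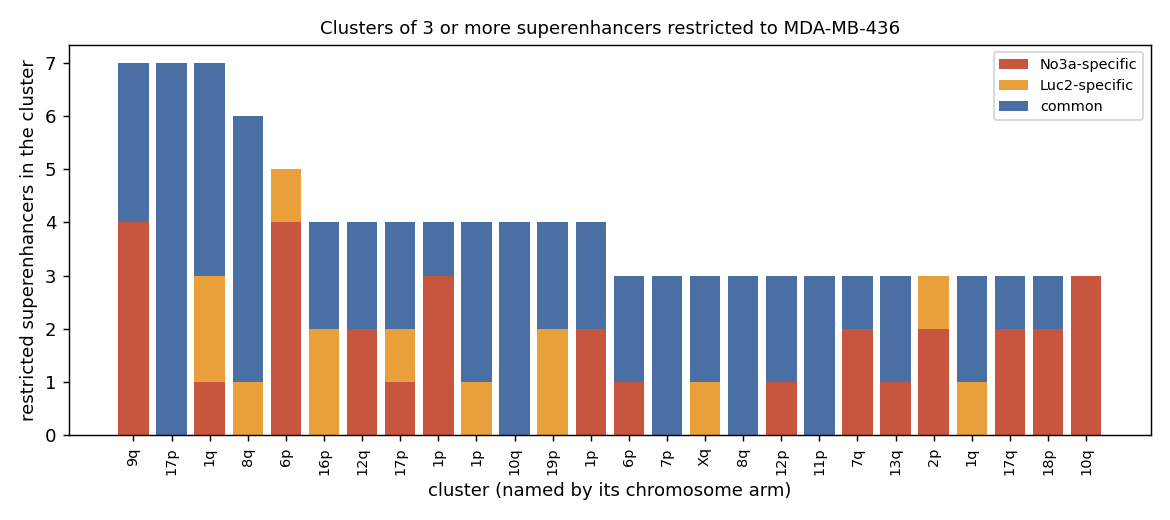
Number of restricted superenhancers in each of the 26 clusters of 3 or more members (gaps of 1 Mb or less), named by chromosome arm and coloured by list. The cluster of 7 on 17p and several of 3 or 4 members are of common regions alone, while the cluster of 7 on 9q and the cluster of 5 on 6p hold 4 No3a-specific regions each.

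OCT-2 peaks of 231-D were rarer in restricted superenhancers than in the other MDA-MB-436 superenhancers. These peaks come from another antibody and were not part of the rule, but they come from 231-D, one of the cells whose superenhancers the rule set aside, and no OCT-2 ChIP of MDA-MB-436 was analysed here. A peak lay in 38 of 313 restricted regions (12.1%, exact 95% interval 8.74 to 16.3%), against 55 of 224 overlapping ones (24.6%, interval 19.1 to 30.7%); the share over all 537 was 17.3%. By a two-sided Fisher exact test the difference passed the threshold (adjusted p = 0.000627), at an odds ratio of 0.425 with a 95% interval of 0.269 to 0.670. The rule set aside every region that met a 231-D superenhancer, and MDA-MB-231 superenhancers held 2.46 of these peaks per Mb. A lower share among restricted regions was thus favoured by the rule, and the test cannot separate this from any other difference. Restricted regions held 41 of the 917 peaks, or 1.55 per Mb, overlapping ones 67, or 2.74 per Mb, and chromosomes 1 to 22 and X as a whole 0.302 per Mb. Widths differed between the sets and wide regions have more room for a peak: among MDA-MB-436 regions below the median width the shares were 6.94% and 17.9% (Fisher exact test, adjusted p = 0.0113), and among wider ones 18.6% and 29.5% (odds ratio 0.546, Fisher exact test, adjusted p = 0.134, past the threshold no longer). In the culture-specific lists alone a peak lay in 15 of 159 restricted and 11 of 54 overlapping regions, an odds ratio of 0.407 that missed the threshold (Fisher exact test, adjusted p = 0.0775). The overlapping regions were not alike. Those met by a superenhancer common to 231Pa and 231-D had a peak in 34 of 113 (30.1%). Those met by a 231-D-specific one had a peak in 18 of 91 (19.8%). Where a 231Pa-specific one met them, 3 of 21 had a peak (14.3%, exact 95% interval 3.05 to 36.3%), near the restricted share but with a wide interval.

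Peaks were also rarer than in superenhancers restricted to MDA-MB-231, where 73 of 350 (20.9%, interval 16.7 to 25.5%) held one. This difference also passed (Fisher exact test, two-sided, adjusted p = 0.00511; odds ratio 0.524, interval 0.342 to 0.803). This second set consists of superenhancers of the cells in which OCT-2 was precipitated or of their parent, and the members were chosen to overlap none of these. A lower share among members was thus favoured by the choice of the sets, and this test cannot separate that from any other difference. Its 231-D-specific regions had a peak in 25.4% (34 of 134), its common regions in 24.1% (19 of 79) and its 231Pa-specific regions in 14.6% (20 of 137). When the rule used the 231Pa-specific and common lists in place of all 3, the shares were 13.9% (56 of 403) and 18.1% (39 of 216). The difference no longer passed the threshold (odds ratio 0.732, Fisher exact test, adjusted p = 0.198). That setting also took the 231-D-specific regions, with the highest share of the 3 lists, out of the second set and enlarged the first. With all 3 lists again, the odds ratio among the wider regions was 0.726 (Fisher exact test, adjusted p = 0.368).

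**Figure D5:**
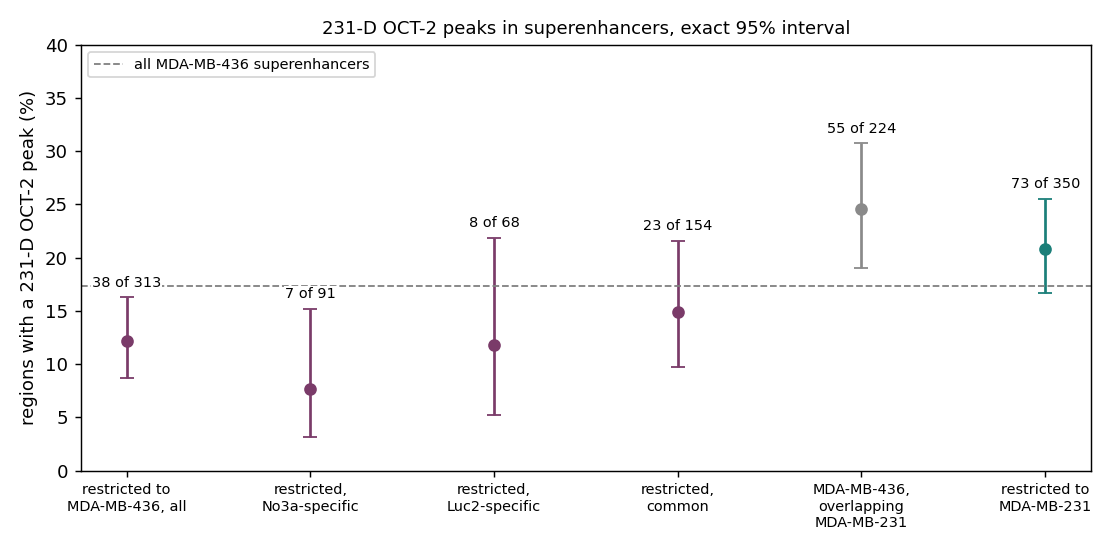
Share of superenhancers with at least 1 OCT-2 peak of 231-D, in percent with exact 95% intervals (counting error only) and the number of regions; the dashed line is the 17.3% of all MDA-MB-436 superenhancers. The restricted set stands at 12.1%, its lists between 7.69 and 14.9%, and the overlapping MDA-MB-436 regions and the regions restricted to MDA-MB-231 at 24.6 and 20.9%.

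By list, a peak lay in 7 of 91 No3a-specific members (7.69%, interval 3.15 to 15.2%), 8 of 68 Luc2-specific ones (11.8%, interval 5.22 to 21.9%) and 23 of 154 common ones (14.9%, interval 9.71 to 21.6%). The intervals overlap, and the No3a-specific members are also the narrowest. Members with a peak had a median width of 109 kb and those without one 73.3 kb. Per Mb of sequence the lists held 1.33, 1.22 and 1.77 peaks. Extending each region on both sides added few regions at first, and the order of both sets stayed: with 10 kb, 39 restricted regions (12.5%) and 56 overlapping ones (25%) had a peak, with 50 kb 49 (15.7%) and 64 (28.6%), and with 100 kb 63 (20.1%) and 77 (34.4%). Members within 1 Mb of a MDA-MB-231 superenhancer had a peak in 11.2% (15 of 134) and those farther away in 12.8% (23 of 179). Members in clusters had one in 15.8% (26 of 165) and those alone in 8.11% (12 of 148), with median widths of 83.0 and 67.1 kb.

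Only 3 restricted regions held 2 peaks, none held more, and all 3 were common to both MDA-MB-436 cultures. They lay on 12p (6936053 to 7126908, 191 kb), 19q (50078628 to 50228242, 150 kb) and 7p (6387748 to 6494596, 107 kb). The peaks on 12p started at 7052667 and 7053907, close to each other and 72.9 kb or more from the nearer end of the region. Those on 7p lay 11.2 and 7.82 kb from the end, and those on 19q 64.8 and 59.1 kb. Among overlapping regions 10 held 2 or more peaks, up to 3. Of the 10 widest members, 5 held a peak.

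The 38 regions with a peak were spread over 16 chromosomes and 22 arms. Chromosome 19 had most, in 6 of its 15 members (40%, exact 95% interval 16.3 to 67.7%), followed by chromosomes 1 (4 of 38) and 17 (4 of 19). Members on chromosome 19 were wide, at a median of 98.1 kb against 75.7 kb over all members. Shares among the overlapping regions of single chromosomes were not counted, so this is not shown to be particular to the members. Over the whole chromosome OCT-2 peaks numbered 0.626 per Mb on chromosome 19, against 0.457 on chromosome 1 and 0.480 on chromosome 17. Within the members the density was 4.26 peaks per Mb on chromosome 19, 1.42 on chromosome 1 and 2.33 on chromosome 17. Chromosomes 3, 15 and 4 had 0 of 14, 0 of 12 and 0 of 11 members with a peak, which by exact 95% intervals allows shares of up to 23.2%, 26.5% and 28.5%. Of the 41 peaks, 17 lay nearer to the middle of their region than to an end and 24 nearer to an end. The median distance to the nearer end over all 41 was 20.3 kb. The restricted region next to a MDA-MB-231 superenhancer on 8q (128745614 to 128775971, 30.4 kb, common list) held a peak 2.01 kb from its end, and the narrowest member with a peak was a No3a-specific region of 28.4 kb on 1p (28968434 to 28996833).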

How the data were processed

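H3K27ac and OCT-2 ChIP-seq of breast cancer cells was deposited as lists of genomic intervals. Per the labels, each list was made by the authors from replicates 1 and 2; bedtools, HOMER, Bowtie and Bowtie2 2.2.2.6, with builds hg38 and hg19, are named in the submitters' processing notes, without the settings of the superenhancer calls. Names of the 231Pa, 231-D and OCT-2 lists give hg19. The MDA-MB-436 lists were read as hg19 because 97 of their 1074 region ends lay within 500 bp of an end in the hg19 MDA-MB-231 lists and 6 within 500 bp of one in the larger hg38 lists. The hg38 lists were not used otherwise, and nothing was converted. Coordinates are printed 1-based.

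Overlap meant 1 bp or more. Arms were assigned by the region's midpoint with the hg19 chromosome lengths and centromere gaps, entered by hand; no region passed an end or lay in a gap. Shares have exact (Clopper-Pearson) 95% intervals, odds ratios Woolf intervals, and 3 Fisher exact tests were adjusted by Benjamini-Hochberg with a threshold of 0.05. Regions named are the widest overall and per list, those with 2 or more peaks and the largest clusters. Also named are those nearest to a MDA-MB-231 superenhancer or with the smallest overlaps, and the arms with most members or extreme shares. A few others, named as such or as examples, were chosen from their values. The members and comparisons were chosen with earlier results of these data known. Scripts were tested on simulated data. Tools were scipy 1.17.1, pandas 2.3.3, matplotlib 3.10.9 and numpy 2.4.6 under Python 3.11.15.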

Additional observations from a re-analysis of the deposited data

How the results depend on the processing

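No paired analysis was possible because the lists merge the replicates, and leaving out a replicate could not be run for the same reason. The 313 restricted regions and 57 clusters were the same in number when an overlap of at least 10% of the region was asked for or 10 kb were kept clear. These 2 settings chose the same MDA-MB-436 regions, since the least overlap was 20.03% and the nearest gap 18.98 kb. Both are counted among the alternatives below, but they left all 3 tests as they were. Needing 50% overlap gave 327 regions and 100 kb kept clear 284. The 231-D-specific and common lists alone gave 333, and the 231Pa-specific and common lists alone 403. With the regions at or above the median width of each MDA-MB-436 list alone there were 152 regions and 28 clusters, fewer by construction. Cluster gaps of 0.5 and 2 Mb gave 45 and 73 clusters. The comparison of No3a-specific with Luc2-specific regions missed the threshold in all 9 alternatives (odds ratios 1.02 to 1.86). OCT-2 peaks were rarer in restricted than in overlapping regions, as the rule favoured, in all 13 alternatives (odds ratios 0.34 to 0.55), and past the threshold in 10. They were not past it with regions at or above the median width of each MDA-MB-436 list (0.548, Fisher exact test, adjusted p = 0.156) or of all (0.546, Fisher exact test, adjusted p = 0.134). The specific lists alone did not pass it either (0.407, Fisher exact test, adjusted p = 0.0775). Against regions restricted to MDA-MB-231 the odds ratio was below 1, as the choice of the sets favoured, in all 12 alternatives and past the threshold in 9. It was not past it with the 231Pa-specific and common lists alone (0.732, Fisher exact test, adjusted p = 0.198) or regions at or above the median width of all (0.726, Fisher exact test, adjusted p = 0.368). Nor was it with regions at or above the median width of each MDA-MB-436 list (0.72, Fisher exact test, adjusted p = 0.307). That setting filtered the MDA-MB-436 regions only, and 449 MDA-MB-231 regions of any width then counted as restricted, so widths were not matched. These settings leave fewer or other regions; the cause was not tested further. Counting regions of 1 kind within 1 Mb once, added after the data had been seen because neighbours are not independent, gave 0.46 (Fisher exact test, adjusted p = 0.0078) and 0.54 (adjusted p = 0.0187). The lists hold intervals without scores, so weak and strong superenhancers could not be set apart.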
